A study of Mus musculus with 8 samples.

Results

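The genes described here are *Th*, *Ddc*, *Slc18a2* and *Slc6a3*, which build, package and recover dopamine in midbrain dopamine neurons, and *Slc10a4*, which encodes an orphan vesicle protein. They were chosen by name, with no measured value, from the 54735 genes of the count table, and all 5 were among the 16538 genes that passed the filter on low counts. RNA from punches of the ventral tegmental area (VTA) was sequenced in DBA2/J mice labelled as male, with 1 library per mouse. The SS (social stress) group held 4 mice that had spent 30 min per day with an unfamiliar, gonadectomized adult male of the CD1 strain from P14 to P21, and the CTR group held 4 unhandled mice of the same strain and age. The labels give the age at sampling as P21, whereas the methods of the study place it on the following day. The labels name no transgene and no drug in either group. By the methods of the study, whole litters were assigned to a group, and more than 1 mouse per sex could come from a litter. The labels do not say which mice shared a litter. The p-values measure the spread between these mice and treat them as independent. Libraries are named by group and replicate number, and values by library follow the order of replicates 1, 2, 3 and 5 in CTR and 2, 3, 4 and 5 in SS.

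The libraries differed in depth and in the genes they captured. Totals ranged from 20036086 to 39569142 counts in CTR and from 25248618 to 47319997 counts in SS. Of 1991 genes with a mean of 1 to 3 CPM (counts scaled to the TMM-normalized library size), CTR-1 lacked 434 and CTR-2 lacked 355, and each of the remaining 6 libraries lacked 1 to 94. CTR-5 and SS-5 went against their label, since they held 14997 and 6551 counts of *Xist*, the RNA of the inactive X chromosome, and 3 and 0 counts of 4 Y-linked genes, whereas the remaining 6 libraries had 0 to 3 and 2293 to 7892 counts. The fold changes of the 5 genes, their ratios, their spread and the genes most like them are therefore also given without this pair of libraries. Defining markers of dopamine neurons outside the 5 genes were present in CTR. *Pitx3*, a homeobox gene that marks midbrain dopamine neurons, had 146 to 306 counts per CTR library, but 9, 0, 0 and 13 counts by library in SS. It did not pass edgeR's quasi-likelihood test (adjusted p = 0.064). Of 9 transcription factors of these neurons, 7 had a log2 fold change below 0 and 2 above it. Those 2 were *Nr4a2*, with mean CPM of 69.8 in CTR and 77.9 in SS, and *Lmx1a*, with 27.9 and 30.6. In bulk tissue, fewer dopamine neurons in a punch and less RNA per neuron cannot be told apart.

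Dopamine is made in sequence by tyrosine hydroxylase (TH), the rate-limiting enzyme that turns tyrosine into L-DOPA, and by DOPA decarboxylase (DDC), which turns L-DOPA into dopamine. The vesicular monoamine transporter VMAT2, encoded by *Slc18a2*, loads it into synaptic vesicles. After release, the dopamine transporter DAT, encoded by *Slc6a3*, carries it back into the cell. *Slc10a4* encodes an orphan vesicle protein of the bile acid transporter family that is found in monoaminergic and cholinergic neurons. TH, DDC and VMAT2 are shared with other monoamine neurons, whereas DAT is the most specific of them for dopamine neurons.

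The 5 genes lie on different chromosomes (GENCODE M21, GRCm38, the same assembly as the mm10 of the authors' alignment). *Th* is at chr7:142892752-142931128 on the minus strand, *Ddc* at chr11:11814101-11898144 on the minus strand, *Slc18a2* at chr19:59260896-59296012 on the plus strand, *Slc6a3* at chr13:73536747-73578672 on the plus strand and *Slc10a4* at chr5:73006883-73012955 on the plus strand. The GENCODE span of *Th* reaches upstream of the RefSeq start used below, which lies inside it. An antisense gene is annotated across *Ddc* and another across *Slc18a2*, with 11 counts each over all 8 libraries. The values of the 5 genes were read over their exons without known strand.

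The sequence around the transcription start is shown for *Th*, *Slc18a2* and *Slc6a3* (RefSeq, GRCm38.p6, 250 bases before to 50 bases after the start, gene strand), because the first 2 carry the same element and the gene with the largest difference does not. Capitals mark the cyclic AMP response element TGACGTCA, which reads alike on both strands, and the GC box GGGCGG on either strand, printed as CCGCCC on the minus strand.
Th, chr7:142899946-142900245, minus strand: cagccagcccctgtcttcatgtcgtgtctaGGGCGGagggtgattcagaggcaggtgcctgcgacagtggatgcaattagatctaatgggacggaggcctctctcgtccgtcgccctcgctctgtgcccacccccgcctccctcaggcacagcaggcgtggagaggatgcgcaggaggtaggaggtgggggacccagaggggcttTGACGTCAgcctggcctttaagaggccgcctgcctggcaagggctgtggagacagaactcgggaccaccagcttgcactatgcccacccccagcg
Slc18a2, chr19:59260628-59260927, plus strand: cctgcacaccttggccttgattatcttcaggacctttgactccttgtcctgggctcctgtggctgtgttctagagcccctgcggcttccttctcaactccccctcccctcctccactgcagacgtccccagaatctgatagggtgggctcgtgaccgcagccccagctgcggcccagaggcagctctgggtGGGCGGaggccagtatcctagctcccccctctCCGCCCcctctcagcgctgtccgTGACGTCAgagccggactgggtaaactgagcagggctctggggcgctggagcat
Slc6a3, chr13:73536497-73536796, plus strand: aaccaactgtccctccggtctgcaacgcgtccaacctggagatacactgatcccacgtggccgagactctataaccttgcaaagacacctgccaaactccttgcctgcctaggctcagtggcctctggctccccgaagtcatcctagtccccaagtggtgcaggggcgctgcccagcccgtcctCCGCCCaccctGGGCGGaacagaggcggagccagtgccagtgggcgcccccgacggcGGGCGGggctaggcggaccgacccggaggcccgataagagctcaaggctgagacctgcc
The element TGACGTCA begins 45 bases before the start of *Th* and 4 bases before that of *Slc18a2*. These genes had log2 fold changes of -3.99 and -2.72, SS relative to CTR. The windows of *Slc6a3*, *Slc10a4* and *Ddc* held no such element, at -6.22, -4.10 and -2.78. A link between the element and the difference was not tested. TGACGTCA was found in 588 of 32851 promoter windows of this length, that is 1.79%. The *Th* window held 1 GC box, that of *Slc18a2* 2, that of *Slc6a3* 3 and that of *Slc10a4* 4, and the motif occurs in 35.7% of all windows. The 2 windows of *Ddc*, which has separate start sites, held neither. The upstream one held AAAGGTCA, the element bound by single molecules of Nr4a2, on its minus strand 73 bases before the start, which 1.51% of all windows carry on either strand, and TATAAA on the minus strand 68 bases before it, overlapping the former, which 13.6% carry. None of the 6 windows held TAATCC, the bicoid-type element, found in 7.06% of all windows. The motifs were chosen after these sequences had been seen, and a match of letters is not a measured binding site.

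All 5 genes were lower in SS than in CTR, and the highest SS library of each gene stood below its lowest CTR library. In edgeR's quasi-likelihood test, 5 of 5 had a p under 0.05 after Benjamini-Hochberg adjustment across the tested genes, where 14 of 16538 genes, that is 0.0847%, passed this threshold, all of them lower in SS. At an unadjusted p under 0.05 there were 612 lower and 471 higher genes, and DESeq2 called all 5 members among 81 genes (0.419% of those it tested), 60 of them lower (0.310%) and 21 higher (0.109%). SS libraries lay wholly below CTR libraries in 2.21% of all tested genes and wholly above them in 2.47%. The difference was not of one size. *Slc6a3* kept 1.38% of its CTR mean, *Slc10a4* 5.86%, *Th* 6.33%, *Ddc* 14.5% and *Slc18a2* 15.2%. The median log2 fold change over all tested genes was 0.0037.

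**Figure D1:**
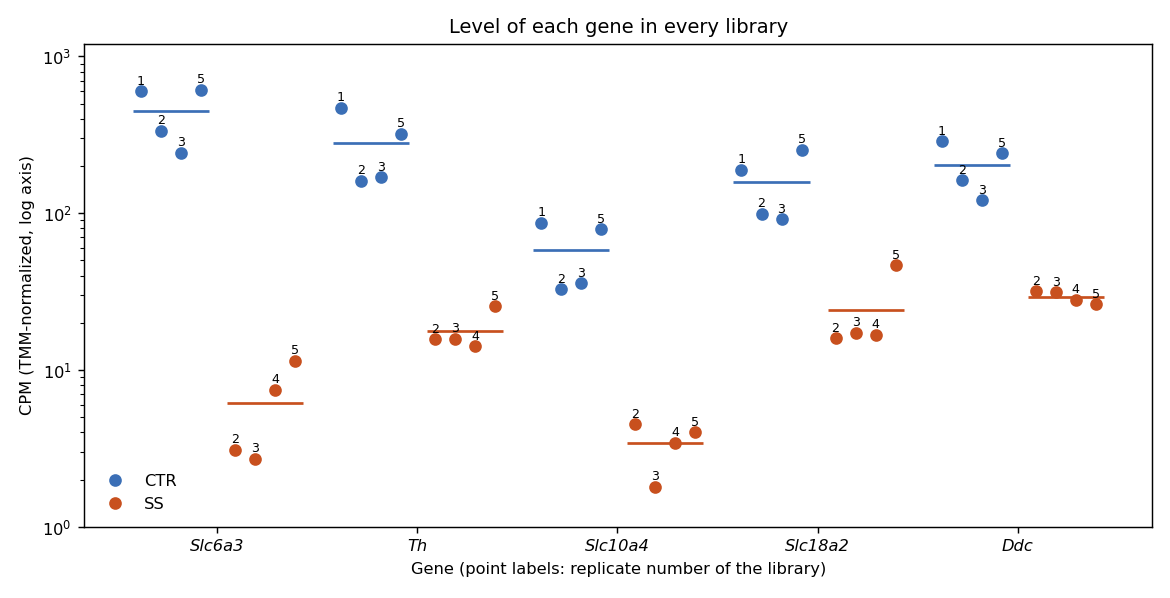
Level of each gene in every library, in CPM on a log axis. Points are single mice labelled with the replicate number, and lines are group means (n = 4). The CTR and SS points of a gene do not overlap for any of the 5 genes, and the gap is widest for *Slc6a3*, whose lowest CTR library stands 21.2-fold above its highest SS library.

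*Slc6a3*, the reuptake transporter, was at 598, 336, 243 and 613 CPM by library in CTR. It was at 3.11, 2.72, 7.46 and 11.5 CPM by library in SS. SS-4 and SS-5 were thus the higher SS libraries, and still the lowest CTR library was 21.2-fold above the highest of them. The group means were 448 ± 186 and 6.19 ± 4.13 CPM (SD, n = 4). Its log2 fold change of -6.22 (SE 0.51; edgeR, adjusted p = 0.00053) was the lowest of all 16538 tested genes, and its p was the smallest. The level in SS rested on 130 to 298 counts per library, so that counting error was at most 8.77% of a value.

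*Th*, the rate-limiting synthesis enzyme, was at 472, 161, 169 and 322 CPM by library in CTR. In the SS libraries it stood at 15.7, 15.8, 14.1 and 25.5 CPM. The CTR libraries spread over 2.93-fold and the SS libraries over 1.81-fold, with SS-5 highest. The group means of 281 ± 147 and 17.8 ± 5.20 CPM (SD, n = 4) differed by -3.99 on the log2 scale (SE 0.35, edgeR, adjusted p = 0.00053).

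*Slc10a4*, the vesicular orphan transporter, was the least abundant of the 5 in CPM and per kb. It was at 87.1, 32.7, 35.6 and 79.1 CPM by library in CTR, and at 4.50, 1.80, 3.43 and 4.01 CPM by library in SS. SS-3 was the lowest library, with 87 counts and a counting error of 10.7%. The group means of 58.6 ± 28.5 and 3.43 ± 1.17 CPM (SD, n = 4) differed by -4.10 on the log2 scale (SE 0.39, edgeR, adjusted p = 0.00089).

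*Ddc*, the second synthesis enzyme, was at 288, 162, 121 and 241 CPM by library in CTR. It was at 31.8, 31.4, 28.1 and 26.3 CPM by library in SS, which is the narrowest SS range of the 5 genes, 1.21-fold. The group means of 203 ± 75.4 and 29.4 ± 2.63 CPM (SD, n = 4) differed by -2.78 on the log2 scale (SE 0.24, edgeR, adjusted p = 0.00053).

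*Slc18a2*, the vesicle loader, was at 190, 99.4, 91.2 and 253 CPM by library in CTR. It was at 15.9, 17.2, 16.8 and 46.6 CPM by library in SS. SS-5 stood apart from the other SS libraries and came within 1.96-fold of the lowest CTR library. The group means of 158 ± 77.4 and 24.1 ± 15.01 CPM (SD, n = 4) differed by -2.72 on the log2 scale (SE 0.42, edgeR, adjusted p = 0.036).

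For each gene an exact permutation test over the 70 assignments of the 8 libraries gave a two-sided p of 0.029, the smallest that 4 against 4 allow. Without CTR-5 and SS-5, the libraries with female-typical transcripts, edgeR's test called all 5 genes again, with log2 fold changes of -6.52 for *Slc6a3*, -4.13 for *Th*, -4.00 for *Slc10a4*, -2.93 for *Slc18a2* and -2.64 for *Ddc*. In that fit 9 genes were called, 0.0546% of those tested. *Slc6a3*, *Th*, *Ddc* and *Slc10a4* were called in each of the 20 alternative fits, and *Slc18a2* in 14 of them. The call of *Slc18a2* was lost without CTR-1 (adjusted p = 0.063), CTR-5 (0.067), SS-2 (0.21), SS-3 (0.17) or SS-4 (0.29), each in edgeR's test, and its log2 fold change stayed between -3.25 and -2.40 when 1 library was left out.

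**Figure D2:**
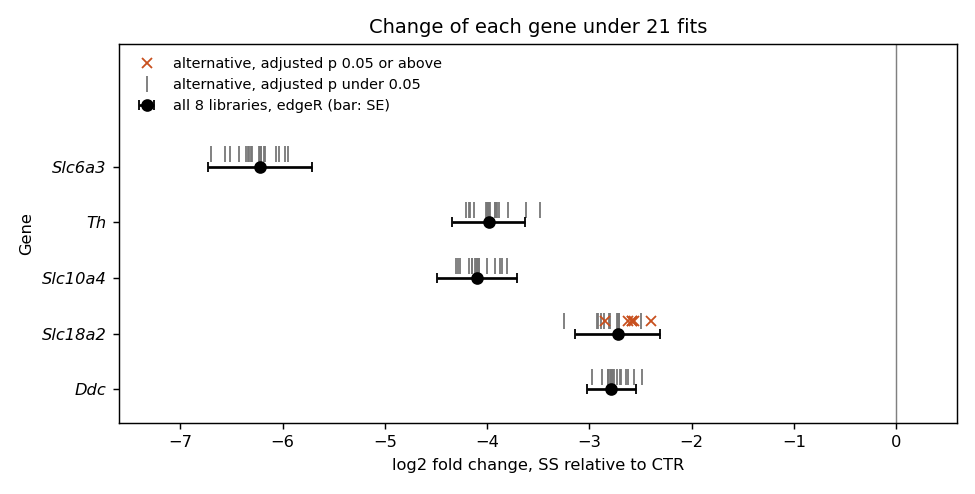
log2 fold change of SS relative to CTR for each gene. Black points with bars are the edgeR estimate over all 8 libraries and its SE, vertical ticks are the alternative fits with an adjusted p under 0.05, and crosses are those at or above it. All fits of all 5 genes lie below 0, and crosses occur only for *Slc18a2*, in 6 of 20 alternatives.

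Levels of different genes were compared per kb of annotated exon. In CTR, *Slc6a3* was highest at 130 ± 54.0 CPM per kb, followed by *Th* at 119 ± 62.3, *Ddc* at 45.5 ± 16.9, *Slc18a2* at 30.3 ± 14.8 and *Slc10a4* at 27.8 ± 13.5 CPM per kb (SD, n = 4). The step from *Th* to *Ddc* was the only one larger than the SD of both neighbours. In SS the order was *Th* at 7.52 ± 2.20, *Ddc* at 6.59 ± 0.589, *Slc18a2* at 4.62 ± 2.87, *Slc6a3* at 1.79 ± 1.19 and *Slc10a4* at 1.63 ± 0.556 CPM per kb, and no step exceeded the larger SD of its neighbours. *Slc6a3* thus moved from the highest level to the second lowest. With the length of the longest coding transcript in place of all annotated exons, *Th* came before *Slc6a3* in CTR (144 and 130 CPM per kb) and *Ddc* before *Th* in SS (14.6 and 9.12 CPM per kb). *Slc6a3* remained second lowest in SS on this scale, at 1.79 CPM per kb.

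The same comparison was made within libraries, where a ratio of 2 counts does not depend on library size. The difference in the log2 ratio between groups measures by how much more one gene was lower than the other. Of the 10 ratios between the 5 genes, 8 did not overlap between SS and CTR, and these 8 had an exact two-sided permutation p of 0.029 and an adjusted p of 0.036 (Benjamini-Hochberg over the 10 ratios). Over all 8 libraries the genes fell into 3 steps, with *Slc6a3* lowest, *Th* and *Slc10a4* next, and *Slc18a2* and *Ddc* least changed.

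The ratio of *Slc6a3* to *Th*, reuptake to synthesis, was 1.27, 2.08, 1.44 and 1.91 by library in CTR. It was 0.198, 0.173, 0.529 and 0.451 by library in SS. Each CTR library therefore held more reads of *Slc6a3* than of *Th*, and each SS library fewer. On the log2 scale the ratio was 0.71 ± 0.34 in CTR and -1.73 ± 0.82 in SS (SD, n = 4), a difference of -2.45 (SE 0.44).

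*Slc6a3* was also lower relative to each of the other members. Its log2 ratio to *Slc10a4* differed by -2.29 (SE 0.46), that to *Slc18a2* by -3.58 (SE 0.34) and that to *Ddc* by -3.61 (SE 0.57), SS relative to CTR. The ratio to *Ddc* was 2.08, 2.07, 2.01 and 2.55 by library in CTR, the steadiest of the 10 ratios in CTR, and 0.0982, 0.0868, 0.266 and 0.436 by library in SS. The 5 genes together can be seen as one pool of reads, of which *Slc6a3* supplied 39.1% ± 2.87 in CTR and 7.27% ± 3.60 in SS (SD, n = 4). The share of *Ddc* was 18.1% ± 1.87 in CTR and 38.4% ± 10.5 in SS.

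*Th* was lower relative to *Ddc*, the enzyme that follows it, with a log2 difference of -1.16 (SE 0.28). This ratio was 1.64, 0.995, 1.40 and 1.34 by library in CTR and 0.495, 0.502, 0.503 and 0.968 by library in SS. SS-2, SS-3 and SS-4 were nearly equal, whereas SS-5 lay just below CTR-2, so that the absence of overlap rests on a narrow gap. *Th* was lower relative to *Slc18a2*, with a log2 difference of -1.13 (SE 0.28). For *Slc10a4* the log2 difference was -1.28 relative to *Slc18a2* (SE 0.42) and -1.32 relative to *Ddc* (SE 0.36).

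A difference was not detected for the remaining 2 ratios. *Th* to *Slc10a4* was 2.25 ± 0.17 in CTR and 2.41 ± 0.60 in SS on the log2 scale (SD, n = 4), a difference of 0.15 (SE 0.31, exact permutation p = 0.66, adjusted 0.73). *Slc18a2* to *Ddc* was -0.41 ± 0.34 in CTR and -0.45 ± 0.85 in SS, a difference of -0.04 (SE 0.46, exact permutation p = 0.94, adjusted 0.94). Their SEs leave room for differences that 4 libraries a group cannot resolve. Without CTR-5 and SS-5 every one of the 8 other differences kept its direction. *Th* to *Slc10a4* then differed by -0.0079 and *Slc18a2* to *Ddc* by -0.30, with no test made. For *Slc18a2* to *Ddc* the groups no longer overlapped. By library, the log2 ratio was -0.60, -0.70 and -0.40 in the CTR libraries left, and -0.99, -0.87 and -0.74 in the SS libraries left. SS-5, at 0.82, was the sole SS library above any CTR library in this ratio.

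**Figure D3:**
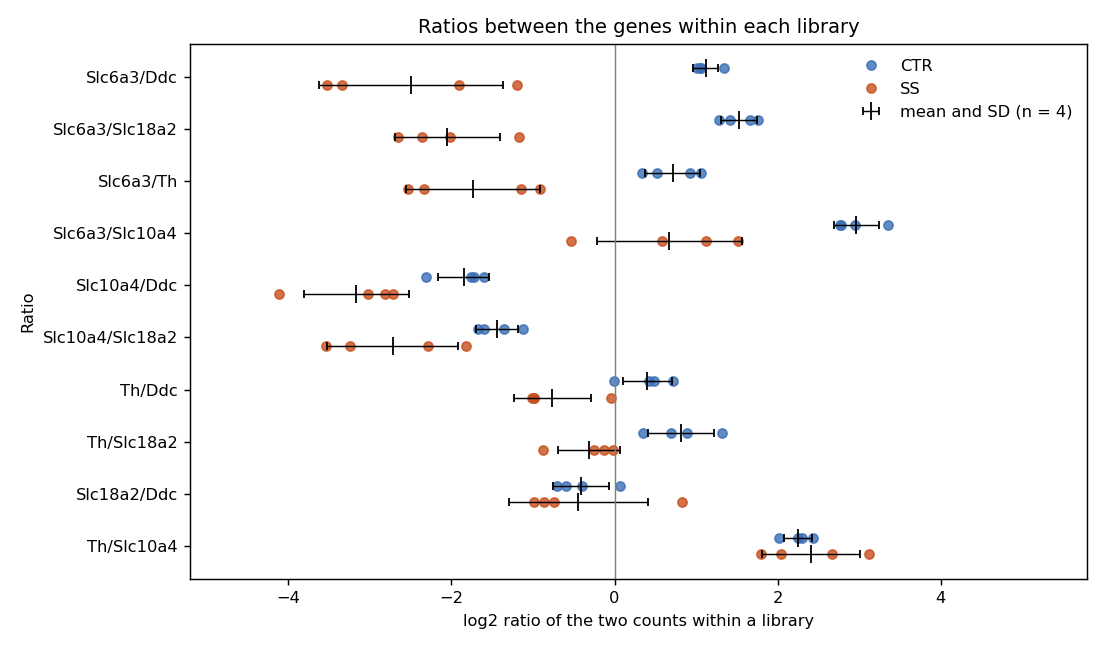
log2 ratio of the counts of 2 genes within each library, ordered by the difference between groups. Points are libraries, and black marks are the mean and SD of each group (n = 4). The 4 ratios with *Slc6a3* as numerator show the widest separation, and the *Th* to *Slc10a4* and *Slc18a2* to *Ddc* ratios overlap.

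The 5 genes also varied together among the CTR mice. CTR-1 and CTR-5 were above CTR-2 and CTR-3 in all 5 genes, the lower of the first pair standing 1.49-fold (*Ddc*) to 2.22-fold (*Slc10a4*) above the higher of the second. This split was read from the values of the 5 genes themselves and is a description. The SD of log2 CPM over the CTR libraries was 0.56 for *Ddc*, 0.65 for *Slc6a3*, 0.72 for *Slc18a2*, 0.74 for *Slc10a4* and 0.75 for *Th*, compared with a median of 0.24 over the 8067 genes with a CTR mean of at least 20 CPM. The SD of their log2 ratios was smaller than that of independent genes with these SDs in each of the 10 pairs. It was 0.16 for *Slc6a3* to *Ddc*, where independence would give 0.86, and 0.17 for *Th* to *Slc10a4*, where it would give 1.06. Without CTR-5, the SD of the ratio was again smaller in 10 of 10 pairs, and the SDs of log2 CPM were 0.58 for *Slc18a2* to 0.88 for *Th*. Varying together in CTR was not particular to the 5 genes. Over the 4 CTR libraries the SD of the log2 ratio was 0.094 for *Slc6a3* to *Chrna6*. It was 0.048 for *Ddc* to *Chrnb3*, and both lay below every pair of members. Other markers of dopamine neurons were less close, with 0.84 for *Slc6a3* to *Nr4a2* and 1.02 for *Slc6a3* to *Kcnj6*. The groups form separate clusters of 4 libraries, so no correlation over libraries was computed.

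Among the SS mice the genes did not keep a common order. The SD of the log2 ratio was below that of independent genes in 6 of 10 pairs, compared with 10 of 10 in CTR. SS-5 was highest for *Slc6a3*, *Th* and *Slc18a2*, but lowest for *Ddc* and second for *Slc10a4*. The SD of log2 CPM was 0.13 for *Ddc*, 0.38 for *Th*, 0.59 for *Slc10a4*, 0.74 for *Slc18a2* and 0.999 for *Slc6a3*. Without SS-5 the SD was 0.09 for *Th* and 0.06 for *Slc18a2*, and the SD of the ratio was below that of independent genes in 3 of 10 pairs. Counting error alone gave at most 0.20 for any of the ratios in SS and 0.059 in CTR.

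**Figure D4:**
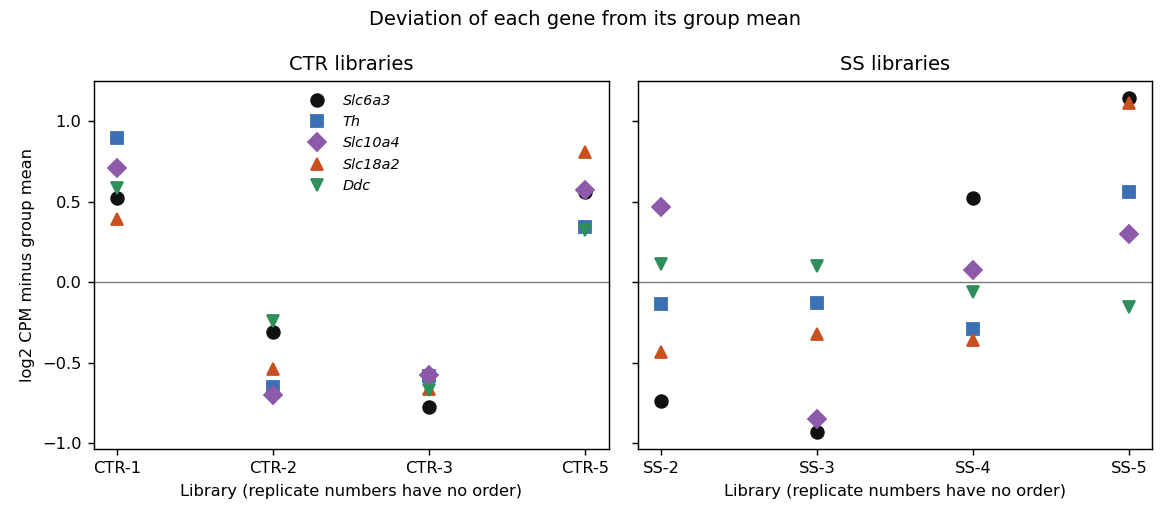
Deviation of each gene in each library from the mean of its group, in log2 CPM, with CTR on the left and SS on the right. In CTR all 5 symbols lie on the same side of 0 in each library, above it in CTR-1 and CTR-5 and below it in CTR-2 and CTR-3, whereas in SS they lie on both sides of 0 in every library.

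The genes whose pattern was most like that of the 5 were sought outside the 5, among genes with a mean of at least 5 CPM. The measure was the SD over the 8 libraries of the log2 ratio to each member. *Chrna6*, a nicotinic acetylcholine receptor subunit of dopamine neurons, was first for *Th* (SD 0.54), *Ddc* (0.64) and *Slc18a2* (0.30), and among the first 3 for *Slc6a3* and *Slc10a4*. *Chrnb3*, a partner subunit, was first for *Slc6a3* (1.16) and second for *Th* (0.63) and *Slc10a4* (0.66). *En1*, a homeobox gene needed for the survival of these neurons, was first for *Slc10a4* (0.48) and second for *Slc6a3* (1.30). The medians over all candidate genes were 1.52 for *Ddc* to 3.49 for *Slc6a3*. Some members were closer to each other than to any candidate, with an SD of 0.42 for *Th* and *Slc10a4*. *Slc18a2* was likewise closer to *Ddc* (0.60) than *Chrna6* was. For *Slc18a2* and *Slc6a3* the closest member, at 0.60 and 1.37, was farther than the first candidate. The remaining places were taken by *Gucy2c*, *En2*, *Ndnf*, *Fam167a* and *Gch1*. Without CTR-5 and SS-5 the first place was unchanged for *Th*, *Slc18a2*, *Slc6a3* and *Slc10a4*, whereas *En2* (SD 0.25) came before *Chrna6* (0.47) for *Ddc*.

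The other genes around dopamine synthesis and breakdown were read from lists. Of 6 genes for tetrahydrobiopterin, the cofactor of TH, 5 were tested, and 1 was called lower and 0 higher. This was *Gch1*, the entry enzyme of cofactor synthesis, which fell from 16.7 ± 6.01 to 2.18 ± 1.01 CPM (SD, n = 4; log2 fold change -2.94, SE 0.43, edgeR, adjusted p = 0.025). *Qdpr*, which recycles the cofactor and was the most abundant of the list, had 254 ± 44.0 CPM in CTR against 202 ± 29.2 in SS and was not called (edgeR, adjusted p = 0.75). Of 5 genes for dopamine breakdown, *Aldh1a1*, an aldehyde dehydrogenase of a subset of dopamine neurons, was called lower (log2 fold change -1.26, SE 0.18, edgeR, adjusted p = 0.025), and the monoamine oxidase genes *Maoa* and *Maob* had log2 fold changes of 0.09 and 0.17 and *Aldh2* one of 0.12. *Gch1* was called in 12 of 20 alternative fits and *Aldh1a1* in 14, and without CTR-5 and SS-5 neither passed edgeR's test (adjusted p = 0.18 and 0.15). Both also lost their call without SS-3 (0.12 and 0.13), SS-4 (0.18 and 0.20) or SS-5 (0.091 and 0.099), and in addition *Gch1* without CTR-5 (0.071) and *Aldh1a1* without SS-2 (0.13), each in edgeR's test. The median log2 fold change was -0.05 for the cofactor list and 0.09 for the breakdown list, beside 0.0037 over all tested genes.

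The nearest relatives of the transporters were hardly detected or did not pass the test. *Slc18a1*, the other vesicular monoamine transporter, had 0 to 43 counts per library, *Slc6a2*, the noradrenaline transporter, 0 to 19, and *Slc6a4*, the serotonin transporter, 0 to 12. *Dbh*, which makes noradrenaline from dopamine, had 0 to 10 counts and *Tph2*, which makes serotonin, 0 to 22. The list of noradrenaline neuron markers summed to at most 0.768 CPM in CTR and 0.335 CPM in SS. Of the other SLC10 genes, *Slc10a1*, *Slc10a2*, *Slc10a5* and *Slc10a6* had no count in any library. *Slc10a7* had 6.27 ± 1.69 CPM in CTR against 7.53 ± 1.53 in SS, and *Slc10a3* had 1.70 ± 1.17 and 2.03 ± 0.707 CPM (SD, n = 4).

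Of 8 other vesicular transporter and vesicle protein genes, 0 were called in edgeR's test, beside 0.0847% of all tested genes. At an unadjusted p under 0.05 there were 3 of the 8, beside 612 lower and 471 higher of all 16538 genes. DESeq2 and limma voom each called *Sv2c*, a synaptic vesicle protein gene (log2 fold change -1.37, adjusted p = 0.053 in edgeR's test), which was called in 9 of 20 alternative fits. *Slc17a7*, the glutamate transporter gene of cortical neurons, had the lowest log2 fold change of the list, -2.16 (SE 0.75, edgeR, adjusted p = 0.74), with 179 CPM (SD 179.3) in CTR against 40.2 ± 17.9 in SS. *Sv2b* had a log2 fold change of -0.51 (SE 0.21, edgeR, adjusted p = 0.75). The vesicular glutamate transporter gene *Slc17a6* had 386 ± 46.6 CPM in CTR against 443 ± 12.7 in SS (SD, n = 4), and *Slc32a1*, which loads GABA, had 120 ± 16.8 and 128 ± 8.53 CPM. *Sv2a*, the most abundant of the list, had 779 ± 25.9 CPM in CTR against 838 ± 5.14 in SS. *Slc18a3*, which loads acetylcholine, had 0 to 51 counts per library. *Slc10a4* is also made by cholinergic neurons, and the cholinergic list summed to 5.73 to 8.73 CPM in CTR and 3.11 to 19.3 CPM in SS.

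**Figure D5:**
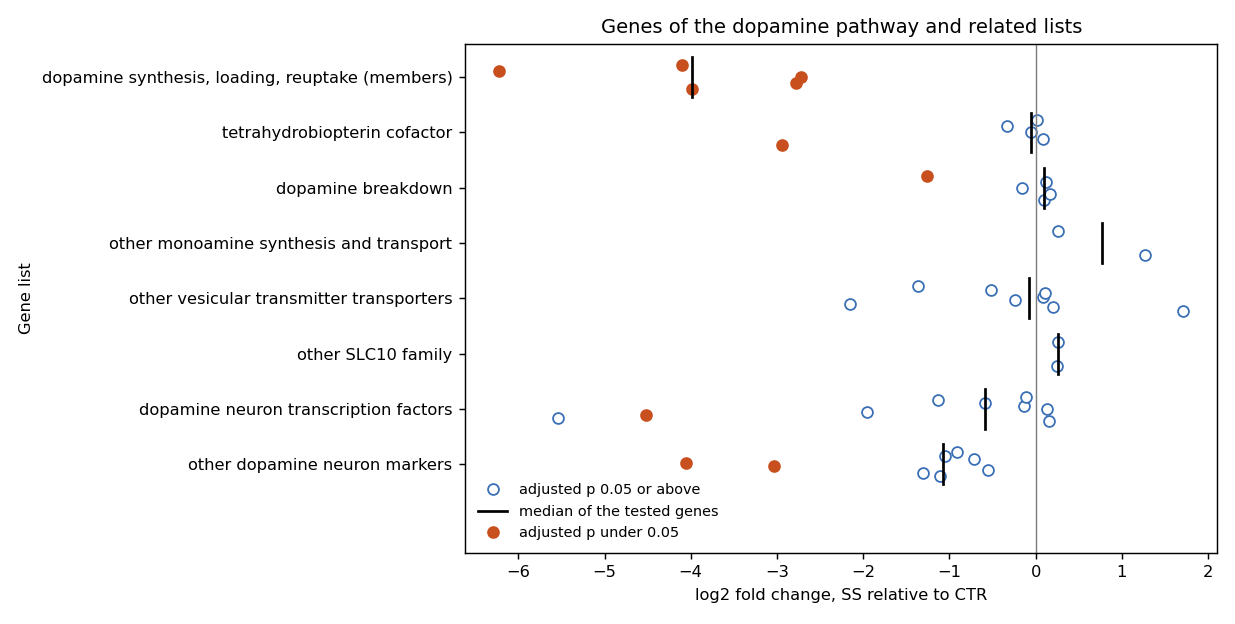
log2 fold change (SS relative to CTR) of every tested gene in the lists around the dopamine pathway. Filled points have an adjusted p under 0.05, open points do not, and black bars are list medians. The 5 members are all filled and lie between -6.22 and -2.72, whereas the cofactor and breakdown lists hold 1 filled point each.

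Of 9 transcription factors of dopamine neurons, 7 had a log2 fold change below 0. The groups did not overlap in 4 of the 9, all lower in SS, as in 2.21% of all tested genes. In edgeR's test 1 was called lower, *En1* (log2 fold change -4.52, SE 0.55, adjusted p = 0.0074), beside 0.0847% of all tested genes. *Pitx3* was not called at -5.55 (SE 0.94, edgeR, adjusted p = 0.064). *Nr4a2*, a nuclear receptor that activates *Th* and *Slc6a3*, was the most abundant of the list, at 69.8 ± 19.5 CPM in CTR against 77.9 ± 13.5 in SS (SD, n = 4, log2 fold change 0.16, SE 0.19, adjusted p = 0.90). *Lmx1a* and *Lmx1b*, factors that specify dopamine neurons, had log2 fold changes of 0.13 and -0.13, with adjusted p-values of 0.92 and 0.90. *En2* and *Foxa2* were lower in every SS library than in any CTR library, with log2 fold changes of -1.96 and -1.14, but did not pass edgeR's test (adjusted p = 0.22 and 0.59). The 8 other markers all had log2 fold changes below 0, and 5 of them did not overlap between groups, all lower in SS, beside the same 2.21%. Among these, *Chrna6* and *Chrnb3* were called lower, with log2 fold changes of -3.04 (SE 0.41) and -4.06 (SE 0.46), and the most abundant, *Dlk1*, was not (-1.05, SE 0.26, adjusted p = 0.46). *Ret*, a growth factor receptor gene, and *Drd2*, the dopamine autoreceptor gene, were lower without overlap at -1.31 and -1.11, with adjusted p-values of 0.054 and 0.12 in edgeR's test. *Chrnb3* was called in 20 of 20 alternative fits, *Chrna6* in 17, *En1* in 16 and *Pitx3* in 5. In edgeR's test *Chrna6* lost its call without SS-2 (adjusted p = 0.12), SS-3 (0.11) or SS-4 (0.15), and *En1* without SS-4 (0.066), without SS-5 (0.054) or without CTR-5 and SS-5 (0.14). The medians were -0.58 for the transcription factors and -1.08 for the other markers.

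The ratios of the 5 genes to single markers within libraries are given as a description, with no test, since the markers were chosen after their values had been seen. The log2 ratio of *Slc6a3* to *Nr4a2* was 2.62 ± 0.84 in CTR and -3.89 ± 0.85 in SS (SD, n = 4), and that to *Drd2* 2.46 ± 0.31 and -2.76 ± 1.28. The ratio to *Nr4a2* differed most. Differences were smaller relative to *En1*, at 3.64 ± 0.53 and 1.68 ± 1.05, and *Chrnb3*, at 2.97 ± 0.17 and 0.83 ± 0.21. Relative to *Pitx3*, which had few counts in SS, the ratio was not lower, at 5.71 ± 0.44 and 6.23 ± 2.46. The log2 ratio of *Ddc* to *Drd2* was 1.35 ± 0.18 in CTR and -0.27 ± 0.23 in SS. For *Slc18a2* to *Chrna6* the values lay closer together, at 1.47 ± 0.27 in CTR and 1.87 ± 0.17 in SS. For *Ddc* to *Chrnb3* the ratio was higher in SS, at 1.85 ± 0.048 in CTR and 3.32 ± 1.13 in SS.

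Markers of other cell types were read to describe the punches. Over 12 lists with 57 genes, 49 were tested and 0 were called in edgeR's test, beside 0.0847% of all tested genes. At an unadjusted p under 0.05 there were 8 of the 49, a larger share than the 612 lower and 471 higher of all 16538 genes. Without CTR-5 and SS-5 there were 12 of 49, beside 912 lower and 834 higher of 16471. DESeq2 called 1 gene of these lists, *Snap25*, limma voom 0, and the bias-adjusted quasi-likelihood fit of edgeR 1, *Pmch*. The groups did not overlap in 3 of the 49, 2 lower and 1 higher in SS. Over all tested genes these shares were 2.21% and 2.47%. The sum of 6 general neuronal genes was 5728 to 6560 CPM in CTR and 4874 to 5207 CPM in SS, and all 6 had log2 fold changes below 0, from -0.36 to -0.10, with every SS library below every CTR library in *Snap25* and *Syp*. *Pmch*, a peptide gene of the lateral hypothalamus, had 4, 413, 44 and 261 counts by library in CTR and 1436, 1547, 868 and 1306 counts by library in SS (log2 fold change 2.54, SE 0.74, edgeR, adjusted p = 0.61). It was called higher in 2 of 20 alternative fits, the bias-adjusted one (adjusted p = 0.022) and that without CTR-1 and CTR-2 (0.023). The whole hypothalamic and mammillary list summed to 80.6 to 177 CPM in CTR and 148 to 197 CPM in SS. The GABA neuron list summed to 910 to 1084 CPM in CTR and 1015 to 1165 CPM in SS, and without CTR-5 and SS-5 its lowest SS library, at 1104 CPM, was above its highest CTR library. The list of cortical and hippocampal excitatory neurons ranged from 23.7 CPM in CTR-1 to 498 CPM in CTR-5, which were both high in the 5 genes, and from 26.6 to 91.4 CPM in SS. The part of neuronal content and of the position of the punch in the lower level of the 5 genes was not tested.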

How the data were processed

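Bilateral VTA punches of 4 CTR and 4 SS mice were sequenced as single libraries. Reads were trimmed with Cutadapt, aligned to mm10 with STAR and assigned to genes by htseq-count (Ensembl release 102), and the authors deposited whole counts per gene without normalization. The strand setting and tool versions are not given in the sources used here. Each library was assigned to its group by its title.

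Counts were analysed in R 4.3.3 with edgeR 4.0.16. Genes were kept with filterByExpr (minimum count 10, minimum total count 15), libraries were normalized with TMM, and SS was compared with CTR with glmQLFit and glmQLFTest at their defaults, with group as the sole covariate, and p-values were adjusted by Benjamini-Hochberg at 0.05. SEs were derived from the F statistic. CPM used the TMM-normalized library size, and counting errors cover reads only. Ratios used log2 of the counts plus 0.5. Exact permutation tests were run with scipy 1.17.1. The fits were tested on simulated data. Alternatives were DESeq2 1.42.0 (the test of the study), limma 3.58.1 voom, other normalizations, filters and estimates, libraries left out, the replicate number as a block and Y-linked transcripts as a covariate. Leaving out CTR-1 and CTR-2 together, the spread and similar genes without CTR-5 and SS-5, and the ratios to other markers were chosen after the data were seen.

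The members, lists and alternatives were chosen with earlier results of these data known. Genes named are the 5 members, list genes that were called, most abundant in their list or nearest relatives of a member, the 3 genes with the most similar pattern per member, and sex-linked genes. Other list genes named were chosen after their values were seen.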

Additional observations from a re-analysis of the deposited data

Results flagged for a closer look

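Extreme libraries were sought within the 4 of each group, for the CPM of the 5 genes and for their 10 log2 ratios, by the distance of an extreme value from the next as a share of the range. Of 30 such groups, 5 passed the 95% limit of Dixon's test for 4 samples, where chance, at about 1 in 20 groups, gives 1.5, and the ratios share genes and libraries. SS-5, 1 of the 2 libraries with female-typical transcripts, was the library concerned in 4 of the 5. It was the highest SS library for the CPM of *Slc18a2* (0.959) and of *Th* (0.853). It was also highest for the log2 ratios of *Th* to *Ddc* (0.976) and of *Slc18a2* to *Ddc* (0.863). CTR-5, the other such library, was the highest CTR library for the log2 ratio of *Slc6a3* to *Ddc* (0.866). Without SS-5, the log2 fold change was -3.25 for *Slc18a2* and -4.20 for *Th*, and both were called in edgeR's quasi-likelihood test (adjusted p = 0.0061 and 0.0025). With Y-linked transcripts as a covariate, edgeR's test called all 5 genes. The part of sex in the position of these single libraries was not tested, as each group holds 1 such library.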

How the results depend on the processing

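The log2 fold changes of *Th*, *Ddc*, *Slc6a3* and *Slc10a4* kept their direction and their call in all 20 alternatives. With 1 library left out they ranged from -4.20 to -3.62, from -2.97 to -2.57, from -6.70 to -5.95 and from -4.30 to -3.85, respectively. *Slc18a2* kept its direction, from -3.25 to -2.40 with 1 library left out, and lost its call in 5 of these 8 fits and without CTR-1 and CTR-2 together, a choice made after the data were seen (log2 fold change -2.85, adjusted p = 0.055 in edgeR's test). The number of all genes called, 14, moved to 81 with DESeq2 at its defaults, to 27 with the bias-adjusted quasi-likelihood fit of edgeR, to 22 without a filter on low counts, to 22 with a mean count of at least 50, to 9 without CTR-5 and SS-5, and ranged from 6 to 19 with 1 library left out. Fewer samples entered the last 2 settings, and for the others the cause was not tested. The 10 ratios between the genes kept their direction and their side of the threshold with a count of 1 in place of 0.5, and their differences moved by less than the pooled SD in every other alternative. These differences were compared as values, with no test of their own. *Nr4a2*, not called in any of 20 alternatives, turned from a log2 fold change of 0.16 to -0.13 without CTR-1 and CTR-2. With limma voom, *Gch1* (adjusted p = 0.053) and *En1* (0.30) were not called.

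The labels do not say whether replicate numbers mark pairs. Deviations of same-numbered CTR and SS libraries over all tested genes had correlations of -0.0062, -0.0077 and 0.060. Such values cannot show whether same-numbered mice shared a litter or a batch, which was not tested. With the replicate number as a block, edgeR called 9 genes, all 5 members among them. The log2 fold changes were -3.48 for *Th* (SE 0.12), -2.49 for *Ddc* (SE 0.22), -2.49 for *Slc18a2* (SE 0.13), -6.30 for *Slc6a3* (SE 0.22) and -3.81 for *Slc10a4* (SE 0.31). Each SE was smaller than without the block. The block ended the calls of *Gch1* (adjusted p = 0.12) and *Aldh1a1* (0.14) in edgeR's test. In SS, *Slc6a3* and *Slc10a4* rested on 87 to 298 counts per library, which limits the precision of their ratios.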
